A study of Homo sapiens with 12 samples.

Results

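The exon junction complex core comprises the proteins that the spliceosome leaves on an mRNA just upstream of each exon-exon junction. Its genes were taken by name: EIF4A3, MAGOH, MAGOHB, RBM8A and CASC3. They account for 5 of 19305 coding sequences in the files, with 1 RefSeq accession each, and each passed the filter on low counts in every comparison. The values are counts of ribosome-protected fragments (footprints), the short mRNA pieces that a translating ribosome shields from nuclease, over each coding sequence. What was measured is therefore ribosomes on the mRNAs that encode the complex, and not the complex on other mRNAs.

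EIF4A3 is the DEAD-box RNA helicase that clamps onto RNA, and the heterodimer of RBM8A (also called Y14) with MAGOH or its close paralogue MAGOHB locks the clamp by blocking the release of ATP hydrolysis products. CASC3 (also called MLN51 or Barentsz) binds the trimer at the periphery of the core, largely in the cytoplasm. The complex stays on the mRNA through export, until the first translating ribosomes displace it. On mRNAs that end translation upstream of such a complex it promotes nonsense-mediated decay. That first translation can occur while the nuclear cap-binding complex, whose large subunit is CBP80, still holds the cap, before eIF4E, its cytoplasmic counterpart, takes over.

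The series holds 12 files. HEK293T, a line derived from human embryonic kidney, gave 8 of them, and all its cultures received sodium arsenite, an oxidative stressor. These 8 divide by siRNA (control or eIF2A) and by the cap-binding protein used for immunoprecipitation (IP), CBP80 or eIF4E, with 2 files in each of 4 groups. eIF2A is a protein that can bring initiator tRNA to the ribosome. The other 4 came from H9 human embryonic stem cells, 2 with control shRNA and 2 with eIF2A shRNA, with no IP and no arsenite on their labels. Each group has a set 1 and a set 2 file, which the labels do not call separate cultures, so p-values measure only the spread between these samples, which may be technical.

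HEK293T files held 4331459 to 5775177 coding reads each and H9 files 937990 to 1878700. The CBP80 and eIF4E files of the same siRNA label and set differed by about the sampling noise of their counts, with a chi-square per degree of freedom of 1.01 to 1.03 in 4 pairs (p = 0.0192 to 0.268), against 3.95 to 5.52 between sets of 1 group. They were summed and counted as 1 sample, which leaves 4 HEK293T libraries. In H9, the control and eIF2A shRNA files of a set lay close to noise but beyond it, at 1.04 and 1.07 (chi-square p = 0.00209 and 5.88e-07). They stayed separate because their labels differ. Of 8 pluripotency markers, 7 had at least 5 CPM (reads per 1000000 coding reads) in every H9 library, while POU5F1 was listed at 0 in all 12 files. The summed level of this list was 2777 to 2999 CPM in H9 and 14.5 to 21.3 CPM in HEK293T. Of 4 HEK293T markers, NEFM had 113 to 158 and NEFL 98.7 to 115 CPM in that line, while PAX2 had 0.628 to 1.68 and LHX1 1.37 to 2.15 CPM there. EIF2A footprints were lower with the eIF2A siRNA label only in set 2 of HEK293T, at 46.7 against 83.5 CPM, while set 1 had 96 against 83.2 CPM and the H9 sets 110.2 against 103.4 and 68.2 against 60.9 CPM. Directions below are therefore between libraries by label, not between cells with a shown loss of eIF2A.

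All 5 core genes had footprints in both cell lines, and all stood lower per coding read in the H9 libraries. EIF4A3 (NM_014740), the helicase, had 766.7 and 790.5 CPM in the HEK293T controls of sets 1 and 2 and 712.6 and 791.5 CPM with the eIF2A siRNA label. In H9 it had 620.1 and 653.8 CPM in the controls and 671.7 and 633.3 CPM with the eIF2A shRNA label. The 4 H9 libraries all lay below the 4 HEK293T libraries, by a small margin, and set 1 with eIF2A siRNA was the lowest of the HEK293T libraries.

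MAGOH (NM_002370), the partner of RBM8A, had 379.2 and 409.8 CPM in the HEK293T controls and 341.9 and 436.6 CPM with the eIF2A siRNA label. Its H9 values were 128.7 and 129 CPM in the controls and 119.2 and 132.2 CPM with the eIF2A shRNA label. The gap between the cell lines was far wider than the spread in either. Within HEK293T the libraries labelled eIF2A siRNA were both the lowest and the highest.

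MAGOHB (NM_001300739), the paralogue of MAGOH, had 59.8 and 52.4 CPM in the HEK293T controls and 55.6 and 58.6 CPM with the eIF2A siRNA label. In H9 it had 30.4 and 43.7 CPM in the controls and 36.7 and 34.1 CPM with the eIF2A shRNA label. These H9 values rest on 32 to 69 reads, the fewest of any core gene, and the H9 libraries again all lay below those of HEK293T.

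RBM8A (NM_005105), the partner of MAGOH or MAGOHB in the heterodimer, had 135.7 and 139.8 CPM in the HEK293T controls and 111.5 and 129.7 CPM with the eIF2A siRNA label. In H9 it had 105.9 and 88.7 CPM in the controls and 87.3 and 91.7 CPM with the eIF2A shRNA label. Both HEK293T libraries labelled eIF2A siRNA lay below both controls, and set 1 of the former lay near the highest H9 library.

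CASC3 (NM_007359) had 195.2 and 182.2 CPM in the HEK293T controls and 227.8 and 229.6 CPM with the eIF2A siRNA label. In H9 it had 131.2 and 144.3 CPM in the controls and 135.2 and 98.1 CPM with the eIF2A shRNA label. It was the core gene whose HEK293T libraries labelled eIF2A siRNA both lay above the controls. The set 2 library with eIF2A shRNA, the shallowest of the series, was lowest. Levels of different genes are not compared here, since no coding lengths were used.

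**Figure D1:**
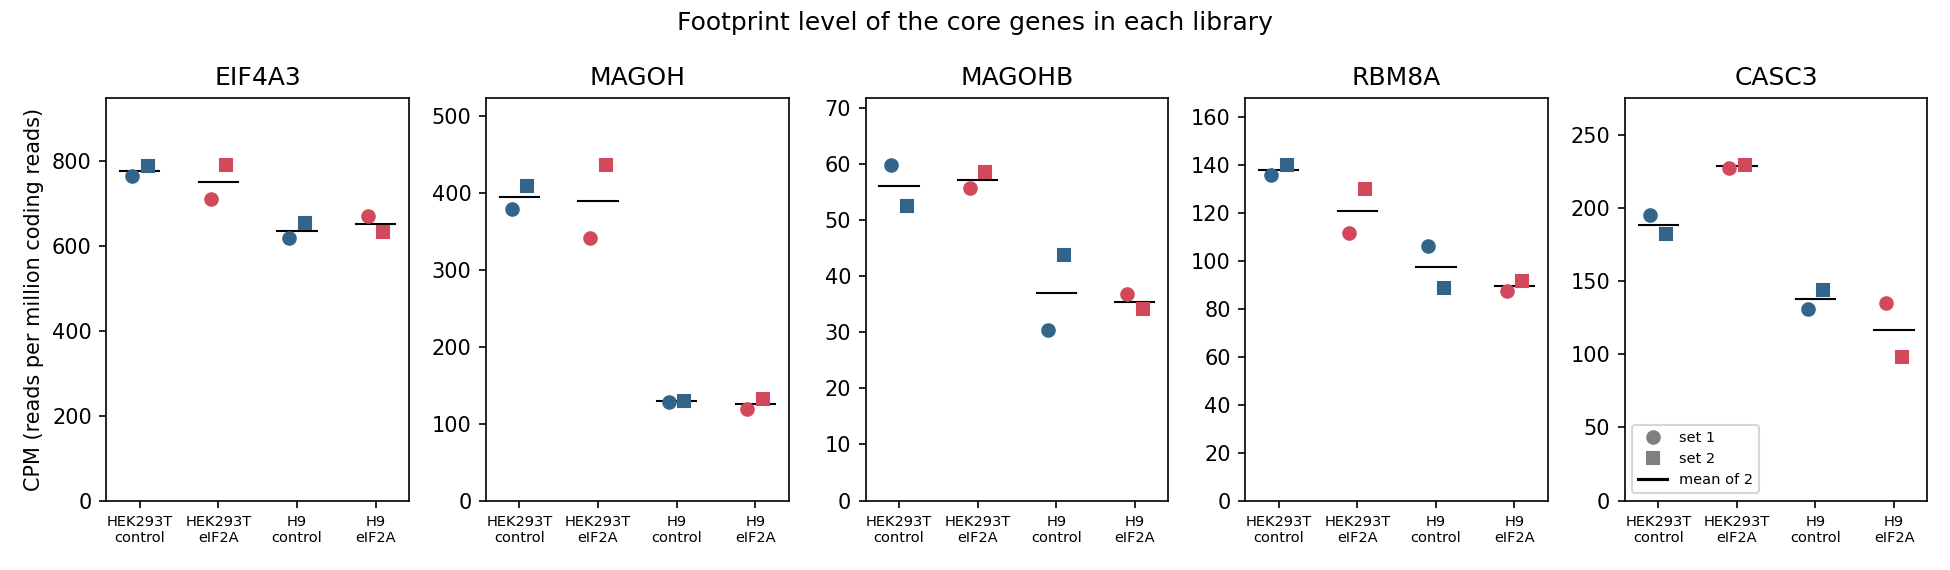
Each panel plots 1 core gene, with CPM (axis from 0) per library for the 4 groups, circles for set 1, squares for set 2 and a line at the mean of 2. The 4 H9 libraries lie below the 4 HEK293T libraries in all 5 panels, and the gap is widest for MAGOH, with 119.2 to 132.2 CPM in H9 and 341.9 to 436.6 CPM in HEK293T.

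The first comparison asks whether footprints on the core genes differed with the eIF2A siRNA label in arsenite-treated HEK293T. By the quasi-likelihood test of edgeR, with 0.05 as the threshold on the adjusted p, none of the 5 passed, where 12.4% of 12331 tested genes did. Their median change was -0.10 on the log2 scale, against 0.00 over all genes. RBM8A had 137.8 ± 2.87 CPM in control and 120.6 ± 12.9 CPM with the eIF2A label (SD, n = 2), a fitted change of -0.27 ± 0.14 (SE; 95% interval -0.54 to -0.01; edgeR adjusted p = 0.175). CASC3 had 188.7 ± 9.16 and 228.7 ± 1.21 CPM, a fitted change of 0.19 ± 0.14 (-0.08 to 0.46; edgeR adjusted p = 0.374). These were the core genes whose 2 groups did not overlap, RBM8A downward and CASC3 upward, and 56.6% of tested genes likewise had groups that did not overlap (35.9% higher, 20.6% lower).

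Ratios within a set use total coding reads, with an interval for counting error only, while fitted changes use TMM scaling between libraries. With library sizes alone the median change of all genes was 0.09, against 0.00 with TMM. The fitted changes were then 0.28 for CASC3 and -0.19 for RBM8A, so the intervals leave out what scaling moves. Within a set, CASC3 with the eIF2A siRNA label stood at 1.17 times control in set 1 (95% interval 1.1 to 1.24). In set 2 it stood at 1.26 times (1.18 to 1.34). RBM8A stood at 0.821 times control in set 1 (0.759 to 0.888) and 0.928 times in set 2 (0.861 to 1). The RBM8A value thus came mostly from set 1. Set numbers are not tied to a culture by the labels. With them as a replicate block RBM8A was at -0.28 and passed the threshold (edgeR adjusted p = 0.0355). Without the set 2 library labelled eIF2A siRNA its fitted change was -0.45 (edgeR adjusted p = 0.0329), which passed the threshold. Over its alternatives the adjusted p of RBM8A ran from 0.0329 to 0.749.

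Per total coding read, MAGOH and MAGOHB stood below control in set 1 and above it in set 2. EIF4A3 stood below it in set 1 and level with it in set 2. These ratios depend on the scaling as well. With library sizes alone the fitted changes were -0.05 for EIF4A3 and -0.02 for MAGOH, nearer 0 than with TMM. EIF4A3 stood at 0.929 times control in set 1 (95% interval 0.9 to 0.959) and at 1.001 times in set 2 (0.971 to 1.03). MAGOH stood at 0.901 times in set 1 (0.861 to 0.943) and 1.07 times in set 2 (1.02 to 1.11), and MAGOHB at 0.931 times (0.83 to 1.04) and 1.12 times (0.994 to 1.26). The fitted changes were -0.13 ± 0.14 for EIF4A3 (95% interval -0.42 to 0.15), -0.10 ± 0.14 for MAGOH (-0.38 to 0.18) and -0.06 ± 0.14 for MAGOHB (-0.34 to 0.22; edgeR adjusted p = 0.585, 0.693 and 0.826). MAGOHB turned to 0.026 with library sizes alone. MAGOH turned to 0.11 without the set 1 library labelled eIF2A siRNA, so no direction is given for either gene. In the libraries labelled eIF2A siRNA, more of the uniquely aligned reads fell outside coding sequences, 51.1 to 51.3% against 40 to 40.2% in set 1 and 42.4 to 42.5% against 35.3 to 35.5% in set 2. Its part in these values was not tested.

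In H9, none of the 5 core genes passed by shRNA label, where 0% of 9751 tested genes passed in edgeR (84 at an unadjusted p under 0.05, and 0 after adjustment in DESeq2). Those 84 are a smaller share than the 0.05 that chance alone gives. This fit leaves the difference between sets in its error. With the set number as a replicate block 493 genes were under 0.05 before adjustment and 0 passed. The SE of EIF4A3 was then 0.05. The fitted change was 0.04 ± 0.11 for EIF4A3 (95% interval -0.22 to 0.29), -0.04 ± 0.15 for MAGOH (-0.39 to 0.30) and -0.06 ± 0.26 for MAGOHB (-0.63 to 0.52). For RBM8A it was -0.13 ± 0.17 (-0.52 to 0.27) and for CASC3 -0.22 ± 0.18 (-0.63 to 0.19). All 5 had an edgeR adjusted p of 1. CASC3 was the core gene with a within-set ratio whose counting interval left out 1, at 0.68 in set 2 (0.527 to 0.871) on 92 reads, against 1.03 in set 1 (0.854 to 1.24). For none of the 5 did the shRNA groups stand apart without overlap, where 23.7% of tested genes did (12% higher, 11.7% lower). The control and eIF2A shRNA files of a set differed by little more than counting noise, at a chi-square per degree of freedom of 1.04 and 1.07. EIF2A footprints were not lower with the eIF2A shRNA label in either set. Such files could hardly show a difference, so the comparison cannot decide whether loss of eIF2A changes these footprints in H9. A test of whether the label effect differed between H9 and HEK293T passed for none of the 5 in edgeR, where 0% of 12911 genes passed (1062 at an unadjusted p under 0.05, and 0 after adjustment in DESeq2). CASC3 had the largest such difference, at -0.42 ± 0.22 (edgeR adjusted p = 0.629).

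mRNAs with CBP80 on the cap are those on which a newly laid exon junction complex first meets ribosomes, so the IP labels were compared for the core genes' own mRNAs. No core gene passed between the CBP80 and eIF4E labels over 4 files each. Their fitted changes ran from -0.13 to 0.02, where 0% of 11778 tested genes passed in edgeR (99 at an unadjusted p under 0.05, and 1 after adjustment in DESeq2). The files of a pair differed by about counting noise over all genes, at a chi-square per degree of freedom of 1.01 to 1.03. Such files could hardly show a difference, so the comparison cannot decide whether ribosomes on these mRNAs differ by cap-binding protein. MAGOHB lay furthest from 0, with 58.8, 52.8, 52.3 and 52.6 CPM in the CBP80 files and 60.8, 51.9, 59.2 and 64.2 CPM in the eIF4E files, in the order control set 1, control set 2, eIF2A siRNA set 1 and eIF2A siRNA set 2. The CBP80 file was below its eIF4E partner in 3 of 4 pairs. The fitted change was -0.13 ± 0.09 (95% interval -0.33 to 0.07; edgeR adjusted p = 1). With the pairs of files as a block, 6 genes of all passed and no core gene did. MAGOHB was then at -0.13 ± 0.06, RBM8A at -0.06 ± 0.04, CASC3 at 0.02 ± 0.03, MAGOH at 0.02 ± 0.02 and EIF4A3 at 0.01 ± 0.02 (edgeR adjusted p = 0.998 for each).

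**Figure D2:**
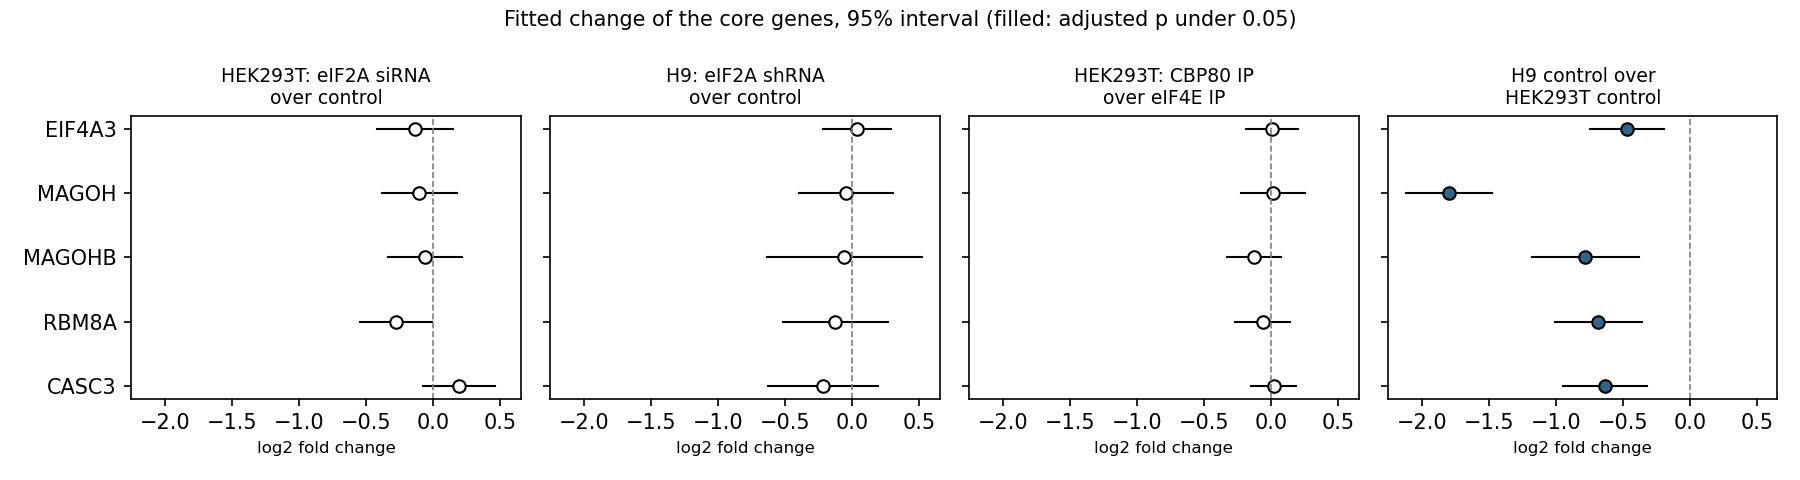
Points are fitted log2 fold changes of the 5 core genes in 4 comparisons and lines are their 95% intervals, filled where the edgeR adjusted p is under 0.05. In the 3 panels of knockdown and IP labels all points lie between -0.27 and 0.19 and are open, while in the panel of H9 over HEK293T all 5 are filled and lie from -1.80 (MAGOH) to -0.47 (EIF4A3).

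Between the control libraries of H9 and of HEK293T, all 5 core genes were lower in H9. Background was high, since 70% of 12911 tested genes passed in edgeR, 36.5% lower and 33.5% higher. Cell line, arsenite, IP, depth and the use of siRNA or shRNA change together here and cannot be told apart. With all libraries, the 4 of H9 lay below the 4 of HEK293T for each of the 5, where 34.1% of tested genes did so, 36.2% lay above and 70.4% did either. The median over the 5 was -0.68 on the log2 scale, against -0.07 over all genes. MAGOH went from 394.5 ± 21.6 CPM in HEK293T to 128.9 ± 0.232 CPM in H9 (SD, n = 2), a fitted change of -1.80 ± 0.16 (SE; 95% interval -2.12 to -1.47; edgeR adjusted p = 8.25e-12). MAGOHB went from 56.1 ± 5.2 to 37.1 ± 9.36 CPM, a fitted change of -0.78 ± 0.20 (-1.18 to -0.38; edgeR adjusted p = 0.000727). RBM8A went from 137.8 ± 2.87 to 97.3 ± 12.2 CPM (-0.68 ± 0.16, -1.01 to -0.36; edgeR adjusted p = 0.000325).

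CASC3 went from 188.7 ± 9.16 to 137.8 ± 9.2 CPM, a fitted change of -0.63 ± 0.15 (95% interval -0.95 to -0.32; edgeR adjusted p = 0.000491). EIF4A3 went from 778.6 ± 16.8 to 637 ± 23.8 CPM, the smallest change of the 5 at -0.47 ± 0.14 (-0.75 to -0.19; edgeR adjusted p = 0.00278). The EIF4A3 call was lost when genes had to reach a mean count of 50, at -0.29 (edgeR adjusted p = 0.0527). The MAGOHB call was lost without the set 1 control of H9, at -0.53 (edgeR adjusted p = 0.0546). The other 3 genes passed under every alternative run for this comparison, including the libraries labelled eIF2A in both lines. Library sizes alone moved the median of all genes from -0.07 to 0.11, and all 5 core genes stayed lower and called with it. Each change was then smaller, at -1.61 for MAGOH, -0.60 for MAGOHB, -0.50 for RBM8A and -0.45 for CASC3. EIF4A3 was at -0.29 (edgeR adjusted p = 0.0341). The CPM given here are on that scale, while the fitted changes use TMM. A smaller share of cells with footprints on a gene and fewer of its footprints per cell cannot be told apart in such data. Reads with more than 1 alignment made up 94.6 to 94.9% of all rows' counts in H9 against 78 to 83.7% in HEK293T. Their part was not tested. RefSeq names 2 pseudogenes of MAGOH and 1 of EIF4A3, and reads that align to a gene and to a copy are in neither count. MAGOH and MAGOHB are also close paralogues, so reads that align to both are left out of both. RBM8A, MAGOHB and CASC3 overlap other genes in RefSeq, and the strand setting of the counts is not given in the sources used here.

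Reads of the core genes were also set against each other within each library, which does not depend on scaling between libraries. This comparison was added after the data were seen, for 7 ratios and all 4 libraries of each cell line. Exact two-sided permutation over libraries can give no p below 0.0286. Of single tested genes, 70.4% set the 4 H9 libraries apart from the 4 of HEK293T. The share of gene pairs whose ratio does so was not computed. MAGOH had 0.177 to 0.209 reads per EIF4A3 read in H9 and 0.48 to 0.552 in HEK293T. On the log2 scale H9 was lower by a difference of -1.37 (exact p = 0.0286, adjusted p = 0.04). CASC3 had 0.155 to 0.221 reads per EIF4A3 read in H9 and 0.23 to 0.32 in HEK293T, a difference of -0.48 (exact p = 0.0286, adjusted p = 0.04). RBM8A had 0.13 to 0.171 reads per EIF4A3 read in H9 and 0.156 to 0.177 in HEK293T, which overlap (difference -0.22, exact p = 0.0857, adjusted p = 0.0857). MAGOHB had 0.0491 to 0.0668 against 0.0663 to 0.0781, which also overlap (difference -0.41, exact p = 0.0571, adjusted p = 0.0667). Since the 2 H9 files of a set differ by little more than noise, these p-values count 4 libraries where there may be 2. With the H9 files of a set summed, 2 samples against 4 cannot pass, and the MAGOH and CASC3 differences were -1.38 and -0.44 (exact permutation, adjusted p = 0.0778 and 0.133). The CASC3 ratio lost its call when any of 5 libraries was left out, all 4 of H9 and set 1 with eIF2A siRNA, with adjusted p from 0.0667 to 0.08.

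The makeup of the uniquely aligned reads of the MAGO pair differed between the H9 and HEK293T libraries as well. Reads that align to both paralogues, or to MAGOH and 1 of its 2 named pseudogenes, are not counted. MAGOHB has 0 named pseudogenes. The part of such reads in these shares was not tested. Arsenite, IP, depth and the use of siRNA or shRNA differ between these libraries too. Single genes set these libraries apart in 70.4% of those tested, and no such share was computed for gene pairs. MAGOHB gave 13.6% of the reads counted for either paralogue in the HEK293T control of set 1 (95% exact binomial interval 12.7 to 14.6). In that of set 2 it gave 11.3% (10.4 to 12.3). With the eIF2A siRNA label it gave 14% (12.9 to 15.1) and 11.8% (11 to 12.7). In H9 it gave 19.1% (14.4 to 24.5) and 25.3% (20.1 to 31) in the controls, and 23.5% (18.8 to 28.8) and 20.5% (14.5 to 27.7) with the eIF2A shRNA label. Within HEK293T the share followed the set and hardly the siRNA label. The H9 libraries averaged 22.1 ± 2.81% and the HEK293T libraries 12.7 ± 1.3% (SD, n = 4), a difference of 9.42 percentage points that every H9 library showed (exact permutation p = 0.0286, the smallest possible). In the family of 7 ratios, MAGOHB reads per MAGOH read differed by 0.96 on the log2 scale (exact permutation, adjusted p = 0.04). Intervals cover counting error only. With the H9 files of a set summed, 2 samples against 4 cannot pass, and the difference was 1.002 (exact permutation, adjusted p = 0.0778).

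**Figure D3:**
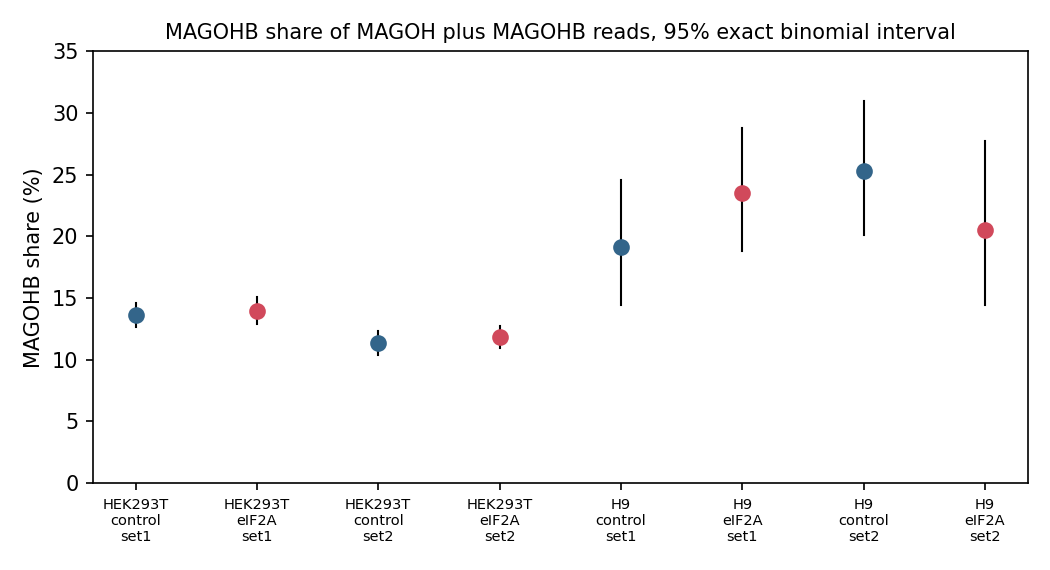
Points are the percentage of uniquely aligned MAGOH plus MAGOHB reads that belong to MAGOHB in each of 8 libraries (axis from 0). Lines are 95% exact binomial intervals for counting error, blue for control and red for eIF2A labels. The 4 H9 libraries sit between 19.1 and 25.3% and the 4 HEK293T libraries between 11.3 and 14%.

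EIF4A1 and EIF4A2, the paralogues of EIF4A3 that unwind mRNA leaders for translation initiation, were lower in H9 too. EIF4A1 changed by -1.20 ± 0.14 and EIF4A2 by -2.85 ± 0.16 in the fit of control libraries (SE, edgeR adjusted p = 3.31e-09 and 4.77e-17). Per EIF4A3 read, EIF4A2 had 0.193 to 0.208 reads in H9 and 0.908 to 1.07 in HEK293T. EIF4A1 had 0.992 to 1.15 in H9 and 1.59 to 1.87 in HEK293T. Both ratios were lower in every H9 library, by -2.29 for EIF4A2 and -0.69 for EIF4A1 on the log2 scale (exact permutation, adjusted p = 0.04 each). With the H9 files of a set summed they were -2.30 and -0.69 and neither passed (exact permutation, adjusted p = 0.0778 each). With the eIF2A siRNA label in HEK293T neither paralogue passed, at -0.30 ± 0.15 and -0.26 ± 0.14 (edgeR adjusted p = 0.169 and 0.235).

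Partner genes of the complex were called in both directions between the cell lines. Of 28 listed partners, which leave out the EIF4A3 paralogues, 27 were tested in edgeR. In H9, 8 were higher (29.6%, against 33.5% of all tested genes) and 7 lower (25.9%, against 36.5%). Their median was 0.07, against -0.07 over all genes. A difference between the partners and the core was not tested. DDX39B, an export helicase, was listed at 0 in all 12 files. Of the factors that assemble, import or remove the complex, CWC22, which brings EIF4A3 to the spliceosome, was lower by a change of -0.89 ± 0.16 (edgeR adjusted p = 7.58e-06). PYM1, which strips the complex from mRNA, was higher at 0.60 ± 0.18 (edgeR adjusted p = 0.00394), a call that ended without the set 1 control of H9, at 0.52. IPO13, the importin that returns the MAGOH and RBM8A dimer to the nucleus, did not pass, at -0.16 ± 0.23. CWC27 and ICE1 were at 0.25 ± 0.19 and 0.14 ± 0.18.

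Of 5 splicing proteins at the periphery, SAP18 was higher at 1.23 ± 0.15 and PNN lower at -1.14 ± 0.16. RNPS1, ACIN1 and SRRM1 did not pass. RNPS1 and SAP18 bind the complex together with either ACIN1 or PNN, in the assemblies called ASAP and PSAP. Of 9 tested export factors 3 were higher and 3 lower, a share each way near that of all genes (33.5% and 36.5%). Of the THO subunits, which couple transcription to export, those called were THOC6 at 2.13 ± 0.22, THOC7 at 0.83 ± 0.22 and THOC1 at 0.70 ± 0.17, higher in H9, and THOC2 at -1.33 ± 0.15 and THOC5 at -1.57 ± 0.16, lower there. The THOC1 call ended without the set 1 control of H9, at 0.39. NXF1, the main export receptor of mRNA, was lower at -1.70 ± 0.18. ALYREF, an adaptor of that receptor, was at -0.13 ± 0.14 and did not pass.

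Of the factors that link the complex to nonsense-mediated decay, UPF3A and SMG6 were higher in H9, UPF2 was lower, and UPF1 and UPF3B did not pass. UPF3B, which contacts the complex directly, was at 0.22 ± 0.15 (edgeR adjusted p = 0.197). Its paralogue UPF3A went from 5.63 to 24 CPM on the scaled libraries, a change of 2.10 ± 0.28 (edgeR adjusted p = 4.74e-08). The endonuclease SMG6 was at 1.25 ± 0.18 and UPF2 at -0.40 ± 0.16 (edgeR adjusted p = 0.0221), a call that ended with library sizes alone (-0.22), with a mean count of 50 required (-0.22), without the set 1 control of HEK293T (-0.30) and without either H9 control (-0.40 and -0.43). NCBP1, which encodes CBP80, was higher at 0.71 ± 0.15, while NCBP2, its cap-binding partner, was lower at -1.32 ± 0.16 and NCBP3 did not pass.

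**Figure D4:**
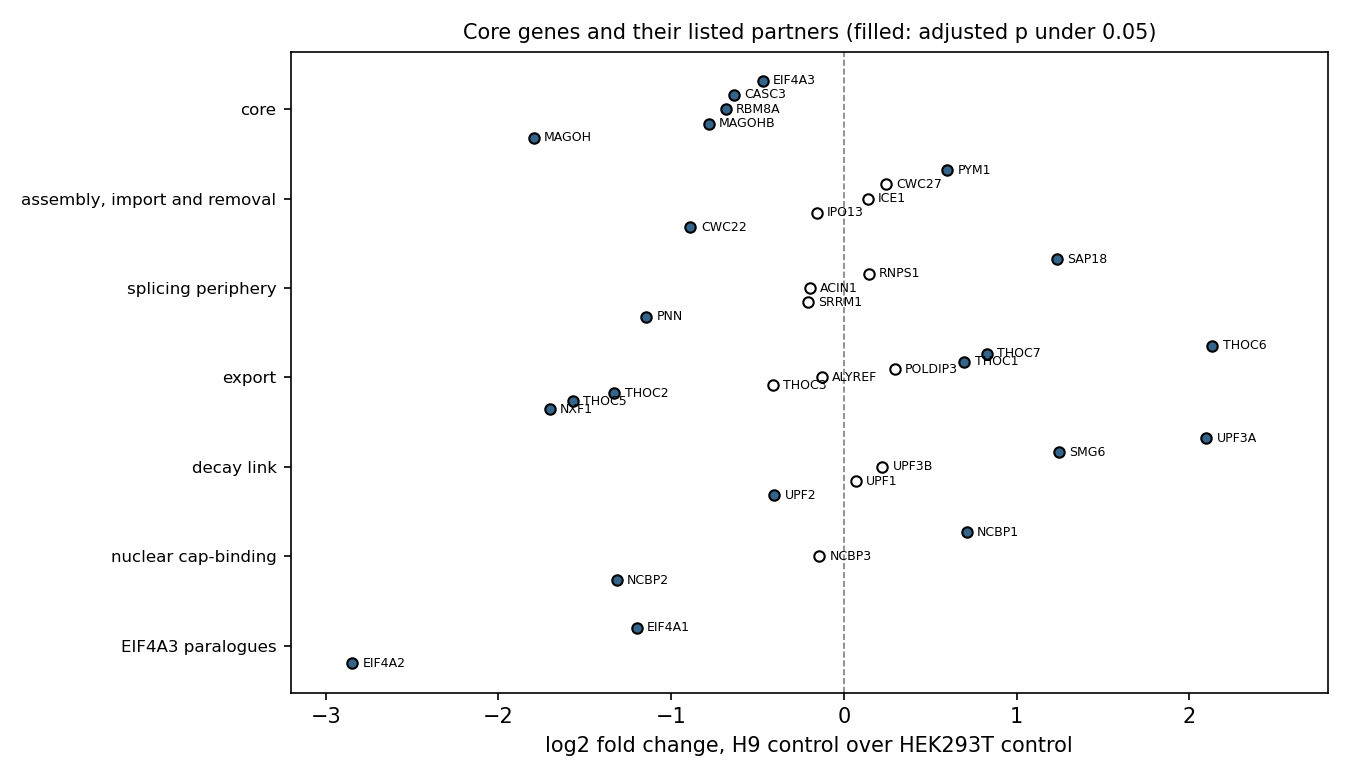
Points are fitted log2 fold changes of H9 control over HEK293T control for the core genes, their 27 tested partners and the 2 paralogues of EIF4A3, in rows by list, filled where the edgeR adjusted p is under 0.05. The 5 core genes and the 2 EIF4A3 paralogues lie left of 0, while the other lists have members on both sides, from NXF1 at -1.70 to THOC6 at 2.13.

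With the eIF2A siRNA label in HEK293T, 2 of the 27 tested partners were higher and 1 lower in edgeR, where 6.15% and 6.29% of all tested genes were. ICE1, a scaffold that aids the loading of UPF3B onto the complex, went from 62.5 ± 13.3 to 91.5 ± 18.4 CPM on the scaled libraries (SD, n = 2), a change of 0.55 ± 0.14 (SE, edgeR adjusted p = 0.0066). IPO13 was higher at 0.49 ± 0.15 (edgeR adjusted p = 0.0247) and THOC3 lower at -0.51 ± 0.17 (edgeR adjusted p = 0.0288). Each of these calls ended without the set 2 control, at 0.34, 0.47 and -0.36, and without set 1 labelled eIF2A siRNA, at 0.32, 0.35 and -0.46. That of IPO13 also ended without the set 1 control, at 0.50. The calls of IPO13 and THOC3 ended in DESeq2 (0.49 and -0.51), that of THOC3 with library sizes alone (-0.42), and all 3 in the unsummed CBP80 and eIF4E files. UPF2, at 0.37 ± 0.13, and SAP18, at -0.37 ± 0.14, missed the threshold (edgeR adjusted p = 0.0518 and 0.0594). In H9 no partner passed by shRNA label, nor did any by IP label in HEK293T.

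Across the 8 libraries the core genes' log2 CPM correlated with each other at Pearson's r of 0.83 (RBM8A and CASC3) to 0.96 (EIF4A3 and MAGOH), a description of points that share the split between cell lines and their depth. Among 7096 genes of at least 20 CPM, the patterns most like that of MAGOH were those of ATP1B3 and MGME1 (r of 0.999 each over 8 libraries, and 0.993 and 0.972 over the 4 of HEK293T). ATP1B3 averaged 805.3 CPM in HEK293T and 288 CPM in H9. The genes most like EIF4A3 were ANAPC11 and STIP1 (r of 0.991 each), and those most like MAGOHB were CTNS and RBBP4 (0.989 and 0.988). RBM8A was followed most closely by PRMT6 and PFKM (0.987 each) and CASC3 by IQCB1 and SENP1 (0.996 and 0.993).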

How the data were processed

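Ribosome profiling libraries were sequenced from HEK293T and H9. The tools named are cutadapt and STAR 2.5.2b, and the build hg19, per the submitters' processing notes. Not given in the sources used here were the counter, its strand setting and the annotation release. As deposited by the authors, each value is a raw count of reads over a coding sequence. Rows that name no gene (87.5 to 89.5% of counts in HEK293T, 96.2 to 96.5% in H9) were left out of library sizes and tests. Of 19305 accessions, 18888 were named through RefSeq's GRCh38.p14 table, used for names only. mRNA-seq, which the design text mentions, was not analysed here, so footprints follow mRNA level and translation together.

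Tests used edgeR 4.0.16 in R 4.3.3 (filterByExpr, TMM, robust glmQLFit, glmQLFTest) and Benjamini-Hochberg adjustment over all genes at 0.05. HEK293T (4 summed libraries) and H9 (4) had separate fits with 2 residual degrees of freedom. The cell lines shared a fit of 8 libraries and the IP labels a fit of 8 files, with 4 each. CPM in the text use total coding reads and fold changes TMM scaling. Ratio intervals are 95% conditional binomial ones. The limit for a gene at 0 was set at 3 counts, or 0.519 to 3.2 CPM by file, and both cover counting error only. The IP files of a siRNA label and set deviate together (correlation of their deviations from group means 0.648 and 0.749), so their block is given beside the result. In a test on simulated data, 200 genes had been changed 2-fold. The fits recovered 91% (siRNA, 12199 genes), 76.5% (shRNA, 9551), 98% (IP, 11640) and 74.5% (cell lines, 12578). Of their calls 1.09%, 3.77%, 5.77% and 3.87% were false, in that order. These data had independent libraries, the same spread for all genes and no difference between sets, unlike the real libraries. Smaller changes were not simulated. Alternatives were RLE scaling, library sizes alone, other count filters, DESeq2 1.42.0, the set as a block, the 8 files unsummed and leaving out each library.

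The members, gene lists, tests and alternatives were chosen with earlier results of these data known. The text names every core gene, list members past the threshold, up to 3 others per list as values, EIF2A, and the 2 genes of highest Pearson correlation per core gene. Footprint density per coding length was planned and not run, since no coding lengths were used here.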

Additional observations from a re-analysis of the deposited data

How the results depend on the processing

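Changes of the core genes by siRNA, shRNA and IP label stayed below the threshold under every alternative, except RBM8A with the eIF2A siRNA label, which passed with the set number as a replicate block (-0.28, edgeR adjusted p = 0.0355) and without the set 2 library of that label. In that comparison 1534 genes passed (758 higher, 776 lower), 735 in DESeq2 (280 higher, 455 lower), 2993 with the replicate block, 473 and 383 in the CBP80 and eIF4E files unsummed, and 75 to 2086 when 1 library was left out (75 without the set 2 control, 287 without set 1 labelled eIF2A siRNA, 983 without the set 1 control). Library sizes alone gave 1032, 740 higher and 292 lower. Sets share a number that the labels do not tie to a culture, and deviations of same-numbered libraries correlated at 0.515 in HEK293T and 0.535 in H9, with 2 numbers each. The block changed no other call of a core gene. By IP label the count of 0 became 3 with no count filter, 1 in DESeq2, 6 with the replicate block and 0 to 2 without 1 file. In the test of whether the eIF2A label effect differed between the cell lines, it was 0 to 1 without 1 library.

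Values near 0 changed sign. With the eIF2A siRNA label MAGOHB was at 0.026 with library sizes alone and 0.048 in the eIF4E files. In the difference of label effects MAGOH was at -0.028 with library sizes alone, and MAGOHB at 0.018 with no count filter and 0.0096 with the replicate block. Leaving out 1 library spanned -0.35 to 0.11 for MAGOH, -0.16 to 0.023 for MAGOHB and -0.88 to 0.060 for EIF2A in HEK293T by siRNA. In H9 by shRNA it spanned -0.012 to 0.085 for EIF4A3, -0.13 to 0.051 for MAGOH, -0.30 to 0.24 for MAGOHB and -0.25 to 0.58 for EIF2A. By IP it spanned -0.060 to 0.069 for EIF4A3, -0.11 to 0.13 for MAGOH, -0.15 to 0.031 for RBM8A and -0.017 to 0.059 for CASC3. In the difference of label effects it spanned -0.17 to 0.28 for MAGOH, -0.26 to 0.30 for MAGOHB and -0.021 to 0.29 for RBM8A.

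With H9 files of a set summed, the ratios per EIF4A3 read differed by -1.38 (MAGOH), -0.44 (CASC3), -0.69 (EIF4A1) and -2.30 (EIF4A2), and MAGOHB per MAGOH read by 1.002, all past no threshold, since 2 samples against 4 cannot reach it. Without 1 library they spanned -0.55 to -0.36 for CASC3, -0.49 to -0.35 for MAGOHB and -0.30 to -0.17 for RBM8A. Of 17 partners and paralogues called between the cell lines, 14 kept their call under every alternative that tested them. In H9, 32 to 69 reads limit MAGOHB.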
